A study of Rattus norvegicus with 11 samples.

Results

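The VEGF ligands and receptors were read in rat lung as the RNA of 9 genes: the ligands Vegfa, Vegfb, Vegfc and Pgf, the receptor tyrosine kinases Kdr, Flt1 and Flt4, and the co-receptors Nrp1 and Nrp2. A probe set belonged to them when the array's annotation gave it exactly 1 of these symbols, which held for 16 of 31042 probe sets, in 9 of 14217 named genes. The lungs came from Dahl salt-sensitive rats weighing 250 to 350 g, and the pulmonary vessels had been flushed through the pulmonary artery. Of the 11 arrays, 3 were labelled hypoxia (inspired oxygen of about 9.5%) with SU5416, 4 hypoxia alone and 4 normoxia in room air, and the study's text lists vehicle for the hypoxia and normoxia groups and a harvest at 3.5 weeks. SU5416 is a small molecule that blocks the kinase of the VEGF receptors, and together with hypoxia it is used to provoke pulmonary hypertension in rats. No analysed group had SU5416 in room air, so effects of the drug and effects that need hypoxia as well cannot be told apart, and a group also given sorafenib was not analysed here. The labels do not say that each array is a different animal, so p-values measure the spread between arrays.

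VEGF ligands are secreted proteins that bind receptor tyrosine kinases on endothelial cells. Vegfa acts mainly through Kdr (VEGFR2), which drives survival, growth and permeability of endothelium, while Flt1 (VEGFR1) binds Vegfa, Vegfb and Pgf, also exists as a secreted decoy and is carried by monocytes as well. Flt4 (VEGFR3) is the receptor of Vegfc and Vegfd and is known for lymphatic endothelium, and the neuropilins Nrp1 and Nrp2 bind ligands beside these kinases and also bind semaphorins. In the lung, alveolar epithelium is a known source of Vegfa and the capillary endothelium carries most Kdr.

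Kdr was ordered by treatment without overlap between arrays: lowest in hypoxia with SU5416, intermediate in hypoxia alone and highest in normoxia. Vegfa, by its brighter probe set, was lowest in hypoxia with SU5416, whereas Vegfc was highest there. Pgf was higher in both hypoxic groups than in normoxia, and Flt1 gave different answers in its 3 probe sets. None of the 16 probe sets passed an adjusted p of 0.05 over all probe sets in any of the 3 comparisons by limma, so each of these patterns is a description of these arrays, with its size and error given below. The values are log2 signals, on which a difference of 1 is a doubling, and levels of different probe sets cannot be compared with each other.

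**Figure D1:**
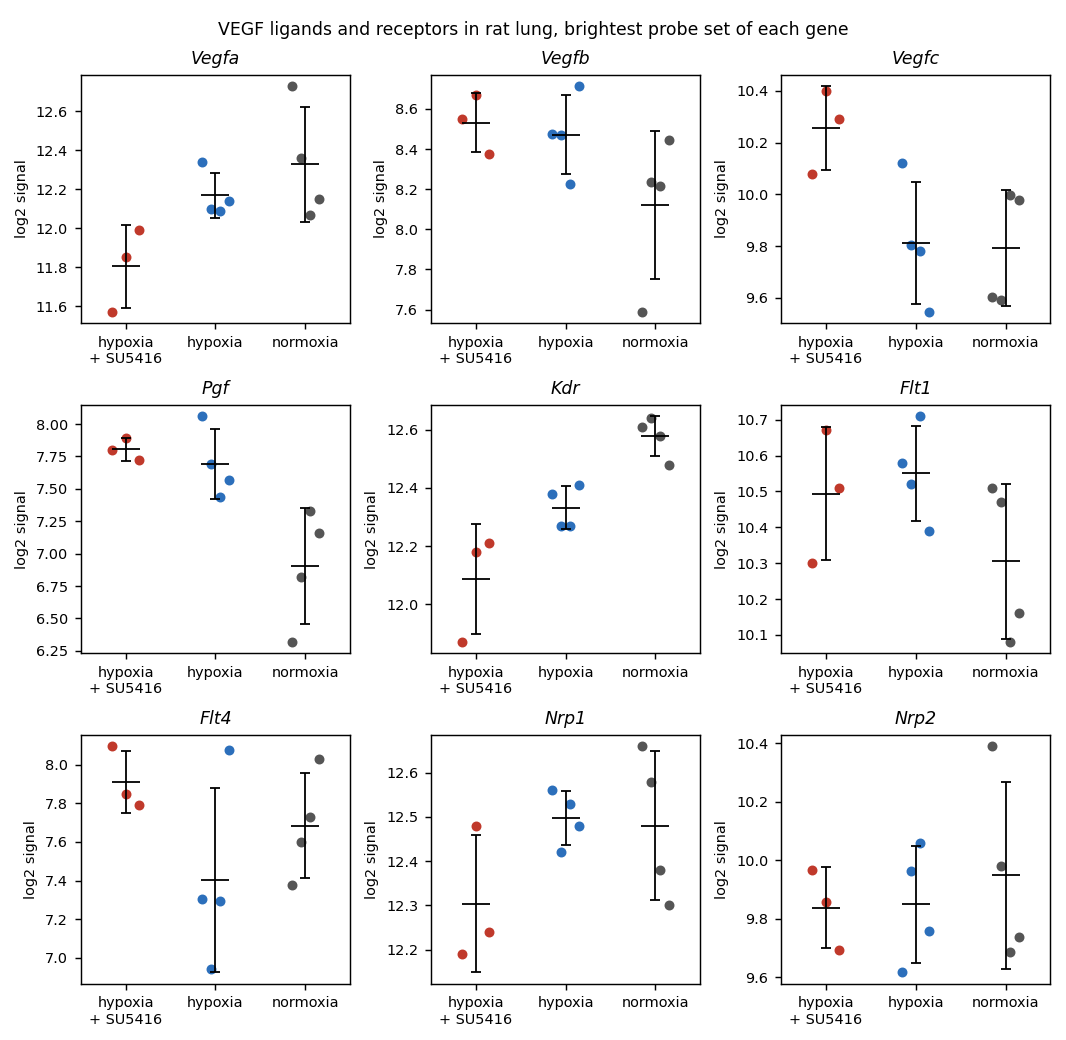
Log2 signal of the probe set with the highest mean for each of the 9 genes, by group (hypoxia with SU5416, hypoxia, normoxia); each point is an array, the long bar the group mean and the whiskers 1 SD (n = 3, 4 and 4). Each panel has its own axis that does not start at 0; the Kdr panel shows the 3 groups one below the other without overlap, with means of 12.09, 12.33 and 12.58.

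In hypoxia with SU5416 against hypoxia alone, limma called 0 of the 16 member probe sets and 8 of 31042 overall (0.0258%). At an unadjusted p under 0.05 there were 3 members, against 7.47% of all probe sets. Vegfc and a Flt1 probe set were higher (4.02% of all probe sets) and Kdr lower (3.45%). SAM, the test the study names, called 1 member, the same Flt1 probe set, and 309 of 31042 probe sets overall. Its calls rest here on a set delta and fold and carry no adjusted p. Kdr passed only at the edge: its limma p rounds to 0.05, and it ranked last of the 2319 probe sets under it. For 3 members no array of one group reached into the other's range, which is 18.8% of the 16 against 11.5% of all probe sets. These were the Flt1 probe set, higher (6.27% of all), and Kdr and Vegfa, lower (5.25%).

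In hypoxia with SU5416 against normoxia, limma called 0 members and 19 probe sets overall (0.0612%), and SAM called 0 members and 366 probe sets overall. An unadjusted p under 0.05 was found for 5 members, against 12.4% of all probe sets, with Vegfc and Pgf higher (4.82% of all) and Kdr, Vegfa and a Nrp1 probe set lower (7.57%). The groups were separate for 6 members, 37.5% against 11.9% of all probe sets. The 3 higher were Vegfc, Pgf and a Flt1 probe set (4.94% of all), and the 3 lower were Kdr, Vegfa and a Nrp1 probe set (6.97%). In hypoxia alone against normoxia, limma called 0 members and 2 probe sets overall (0.00644%), and SAM called 0 members and 584 probe sets overall. An unadjusted p under 0.05 was found for 3 members, against 11% of all probe sets, with Pgf higher (3.33% of all) and Kdr and a Flt1 probe set lower (7.64%). The groups were separate for 3 members, 18.8% against 6.13%, both Pgf probe sets higher (2.05% of all) and Kdr lower (4.08%). The dimmer Pgf probe set was below background on all normoxia arrays and on 2 of 4 hypoxia arrays, and values below background have no order, so its separation carries no weight. Several of these probe sets share a gene, and any 2 of the comparisons share the arrays of a group, so the counts are not independent of each other.

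**Figure D2:**
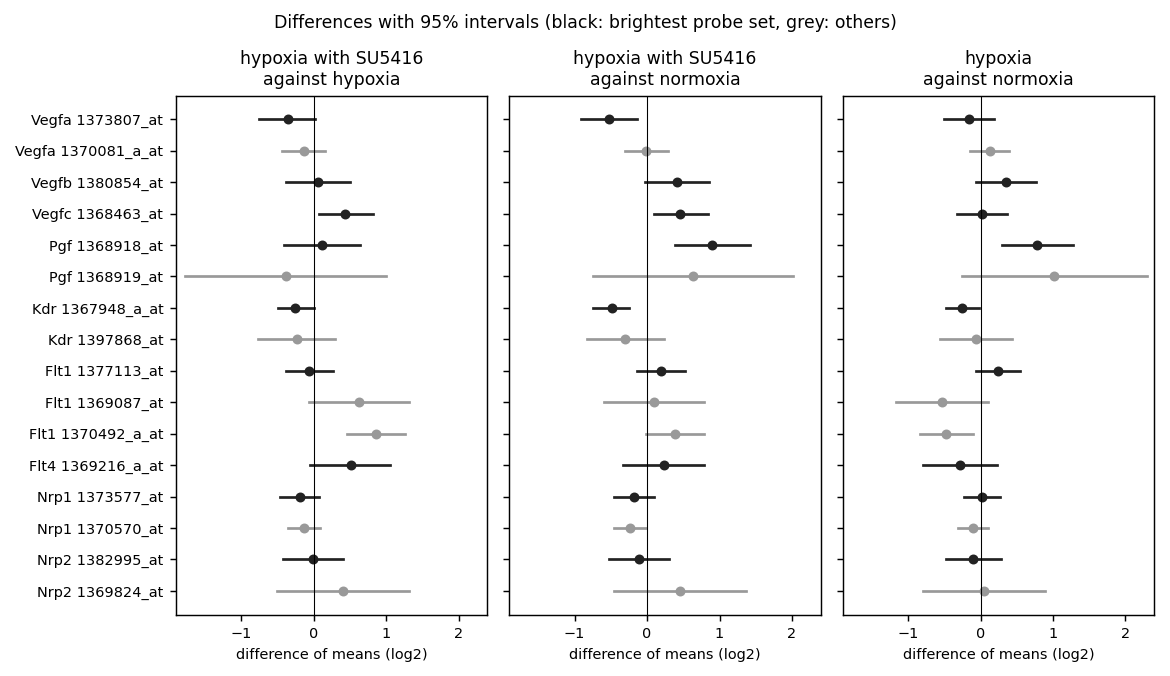
Difference of group means (log2) with its 95% interval from limma for each of the 16 probe sets in the 3 comparisons; the probe set that represents a gene is black and the others are grey. The intervals of Kdr, Vegfa, Vegfc and Pgf in hypoxia with SU5416 against normoxia lie to 1 side of 0, and 0 of the 48 differences passed the adjusted threshold. Pgf 1368919_at and Nrp2 1369824_at were near background, and their differences have no reading.

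The start regions of Vegfa, of its receptors Kdr and Flt1 and of Pgf, which binds Flt1, are shown, because each had a probe set whose arrays separated between groups in at least 1 comparison and because a core motif of the hypoxia-inducible factors is ACGTG or GCGTG. Each line gives the 250 bases before the annotated start in RefSeq's GRCr8, 5′ to 3′ on the gene's strand, with GCGTG on either strand in capitals (read as CACGC where it lies on the opposite strand).
Kdr, chr14:32571813-32572062, plus strand: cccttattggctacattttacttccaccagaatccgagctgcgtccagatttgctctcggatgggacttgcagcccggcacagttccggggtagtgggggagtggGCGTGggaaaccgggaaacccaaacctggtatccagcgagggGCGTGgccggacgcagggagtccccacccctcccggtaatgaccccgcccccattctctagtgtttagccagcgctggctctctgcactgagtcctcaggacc
Vegfa, chr9:22452604-22452853, plus strand: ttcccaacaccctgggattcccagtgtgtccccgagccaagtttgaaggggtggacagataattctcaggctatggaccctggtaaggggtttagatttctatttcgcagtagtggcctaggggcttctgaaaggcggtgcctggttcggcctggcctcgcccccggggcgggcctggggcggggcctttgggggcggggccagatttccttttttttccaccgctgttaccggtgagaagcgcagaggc
Pgf, chr6:110557748-110557997, minus strand: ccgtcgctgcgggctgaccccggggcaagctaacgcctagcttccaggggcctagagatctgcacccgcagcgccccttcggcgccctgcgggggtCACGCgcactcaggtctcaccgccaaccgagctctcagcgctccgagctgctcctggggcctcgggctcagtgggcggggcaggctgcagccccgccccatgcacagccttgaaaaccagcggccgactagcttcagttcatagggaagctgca
Flt1, chr12:12333180-12333429, plus strand: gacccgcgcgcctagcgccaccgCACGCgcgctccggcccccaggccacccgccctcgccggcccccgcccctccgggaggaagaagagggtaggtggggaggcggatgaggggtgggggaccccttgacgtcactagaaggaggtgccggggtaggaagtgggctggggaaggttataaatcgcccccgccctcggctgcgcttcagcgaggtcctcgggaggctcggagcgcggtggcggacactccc
All 9 genes had an entry, 10 windows in all because Vegfa has 2. ACGTG, searched on both strands, was in 0 of the 10 windows, against 16.6% of 33469 windows of this length over all genes. GCGTG, searched after that result, was in 6 of the 10, against 25.9% of all windows, and 2 copies lie in the Kdr window. Vegfc and Nrp1, whose arrays also separated between hypoxia with SU5416 and normoxia, are not printed; the Vegfc window holds 0 copies and the Nrp1 window 1. The second Vegfa window is also not printed, and it holds 0 copies of either motif. Both motifs are short, and a match describes letters only. Sequence outside these 250 bases was not searched, so a window without a match does not show that the gene lacks the motif.

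Kdr, the receptor through which Vegfa mainly signals and the target SU5416 is known for, had log2 signals of 11.87, 12.18 and 12.21 in hypoxia with SU5416, 12.38, 12.27, 12.27 and 12.41 in hypoxia alone, and 12.61, 12.64, 12.58 and 12.48 in normoxia. The 3 groups did not overlap, an order that 29 of 31042 probe sets had (0.0934%). Against normoxia, hypoxia with SU5416 was 1.41-fold lower, a difference of −0.49 (SE 0.11, 95% interval −0.74 to −0.25, limma adjusted p = 0.136), the 282nd smallest p of all probe sets. Without any dimmer probe set, a test over 15521 probe sets, and with limma's trend and robust options, this difference passed the threshold (adjusted p = 0.0437 and 0.0428). Over all 21 alternatives it lay between −0.55 and −0.38, and those 2 were the only ones that called it. The highest limma adjusted p was 0.355, with only the 2 groups fitted. Against hypoxia alone the difference was −0.25 (SE 0.11, limma adjusted p = 0.668), and it was −0.14 without SU5416 array 1, the lowest of the 11. Hypoxia alone was 1.19-fold lower than normoxia (−0.25, SE 0.10, limma adjusted p = 0.432), and −0.16 after centring each array on its median. The dim second probe set of Kdr, 1397868_at, had 7.16, 6.97 and 7.02 in hypoxia with SU5416, 6.90 to 7.71 in hypoxia alone and 7.05 to 7.75 in normoxia, with overlap between all groups. Its differences from hypoxia alone and from normoxia were −0.23 and −0.30 (SE 0.24 each), and between hypoxia alone and normoxia −0.06 (SE 0.22), limma adjusted p from 0.653 to 0.945.

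In whole lung, fewer cells of a type and less RNA per cell cannot be told apart, and the endothelial markers are therefore given beside Kdr. Of 20 measured pan-endothelial markers, none below background, 14 were lower in hypoxia with SU5416 than in hypoxia alone (median −0.10) and 13 lower than in normoxia (median −0.11). In hypoxia alone, 11 of the 20 were lower than in normoxia (median −0.05). Over all 14217 genes, 49.0%, 47.4% and 48.8% were higher in these comparisons. The summed signal of the list, as log2 of the sum, was 16.01 to 16.06 in hypoxia with SU5416, 16.09 to 16.16 in hypoxia alone and 16.03 to 16.28 in normoxia. The adhesion molecule Pecam1 had 11.16, 11.26 and 11.27 in hypoxia with SU5416, 11.60, 11.67, 11.54 and 11.37 in hypoxia alone, and 11.49, 11.49, 11.12 and 11.01 in normoxia, so that it did not follow the order of Kdr. Tek, the angiopoietin receptor, had means of 12.08 ± 0.12 (SD, n = 3), 12.29 ± 0.23 (n = 4) and 12.50 ± 0.36 (n = 4) in the same order of groups, with overlap. Its normoxia mean rested on arrays 1 and 2 (12.86 and 12.76), whose RNA integrity is described below. Normoxia arrays 3 and 4 had 12.12 and 12.28, within the range of hypoxia alone (12.06 to 12.54). Mmrn2 went the other way, with 10.25 ± 0.12, 10.19 ± 0.19 and 9.72 ± 0.17. Both hypoxic groups lay above normoxia without overlap (0.53 and 0.47, limma adjusted p = 0.179 and 0.293). Eng followed the order of Kdr in its means, with 11.61 ± 0.07, 11.82 ± 0.12 and 12.02 ± 0.14, and its hypoxic groups overlapped. With SU5416, Eng and Sox7 lay below normoxia without overlap (−0.42 and −0.46, limma adjusted p = 0.199 and 0.317). With SU5416 against normoxia, 1 of the 20 was higher and 3 lower at an unadjusted p under 0.05. Those shares were 5% and 15%, against 6.02% and 6.70% of all genes. Cdh5 is not among the 20, because no probe set carried that symbol alone.

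Set against the mean log2 signal of these 20 markers on the same array, Kdr stood at 0.36, 0.59 and 0.68 in hypoxia with SU5416, 0.72, 0.63, 0.68 and 0.81 in hypoxia alone, and 0.92, 0.94, 1.04 and 0.87 in normoxia. The normoxia arrays all lay above both hypoxic groups, and the hypoxic groups overlapped. The mean was lower by 0.40 in hypoxia with SU5416 and by 0.23 in hypoxia alone than in normoxia, against spreads of 0.16, 0.08 and 0.07 (SD) in hypoxia with SU5416, hypoxia alone and normoxia. The markers may not stand for the cells that carry Kdr, and the part of endothelial cell number in the Kdr values was not tested.

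**Figure D3:**
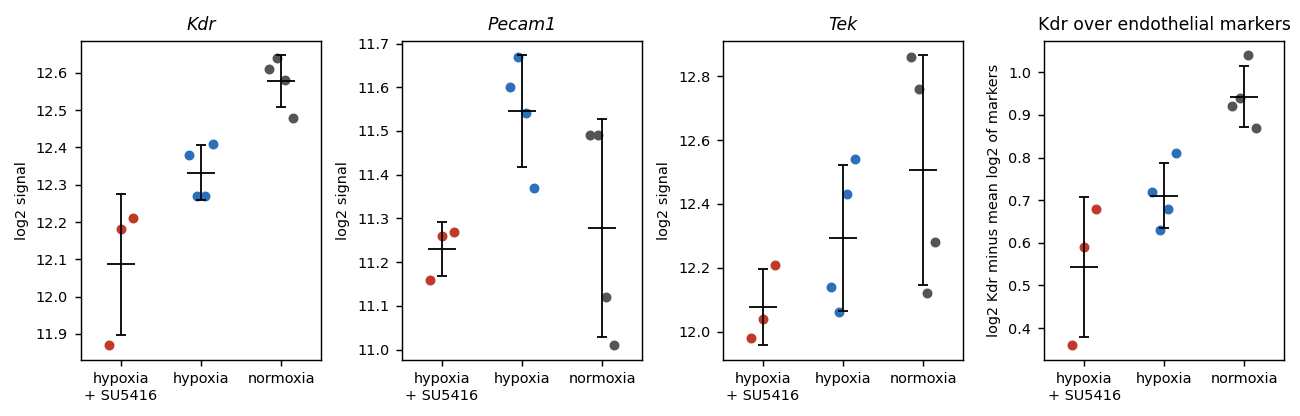
Log2 signal of Kdr, Pecam1 and Tek, and Kdr minus the mean of 20 endothelial markers on the same array, by group; points are arrays, long bars group means and whiskers 1 SD. Axes do not start at 0. Kdr over the markers averaged 0.54 in hypoxia with SU5416, 0.71 in hypoxia and 0.94 in normoxia.

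Among markers of lung capillaries, 10 of 14 were lower in hypoxia with SU5416 than in hypoxia alone (median −0.15) and 9 of 14 lower than in normoxia (median −0.20). Of the 14, 1 was called against normoxia, where 12 of all 14217 genes were called. It was Apln, the apelin peptide, which is also in the list of genes that VEGF induces. Its call held in only 4 of 20 other limma fits. Car4, the membrane carbonic anhydrase of a capillary subtype, was 1.62-fold lower in hypoxia with SU5416 than in hypoxia alone (9.91 ± 0.12, n = 3, against 10.61 ± 0.24, n = 4, limma adjusted p = 0.287). Against normoxia (10.82 ± 0.09, n = 4) it was 1.88-fold lower (limma adjusted p = 0.059). Rgcc, another of the 14, was higher with SU5416 than in normoxia without overlap (8.13 ± 0.26 against 7.24 ± 0.39, limma adjusted p = 0.196). In that comparison 1 of the 14 was higher and 4 lower at an unadjusted p under 0.05. These were 7.14% and 28.6%, against 6.02% and 6.70% of all genes.

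Vegfa was read by 2 probe sets that differed. The brighter, 1373807_at, had 11.57, 11.85 and 11.99 in hypoxia with SU5416, 12.34, 12.10, 12.09 and 12.14 in hypoxia alone, and 12.73, 12.36, 12.07 and 12.15 in normoxia. All 3 arrays with SU5416 lay below the other 8. The difference was −0.36 against hypoxia alone (SE 0.17, 95% interval −0.75 to 0.02, limma adjusted p = 0.69) and −0.52 against normoxia (SE 0.17, 95% interval −0.91 to −0.14, limma adjusted p = 0.273). The other probe set, 1370081_a_at, had 10.78, 10.91 and 10.87 in hypoxia with SU5416, 10.73 to 11.27 in hypoxia alone and 10.69 to 10.94 in normoxia, with differences of −0.13 and −0.01 (SE 0.13 each). Hypoxia alone differed from normoxia by −0.16 (SE 0.16, 95% interval −0.51 to 0.19) in the brighter probe set and by 0.13 (SE 0.12, 95% interval −0.15 to 0.40) in the other, limma adjusted p = 0.745 and 0.739.

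Normoxia arrays 1 and 2 stood apart in the gap between the 3′ and 5′ probe sets of beta-actin, a measure of RNA integrity. The gap was 2.24 and 1.33 on them, against 0.51 to 0.87 on the other 9 arrays. Without them, the difference of the brighter Vegfa probe set from normoxia was −0.31 with SU5416 (adjusted p = 0.40 by limma) and 0.06 in hypoxia alone. Alveolar markers are given beside Vegfa. Of 11 type I cell markers, 10 were lower in hypoxia with SU5416 than in hypoxia alone (median −0.05) and 8 lower than in normoxia (median −0.05), and of 12 type II cell markers, 10 were higher than in hypoxia alone (median 0.11) and 7 higher than in normoxia (median 0.02). The type I marker Ager, like Vegfa, was brighter on normoxia arrays 1 and 2 (13.22 and 13.29) than on 3 and 4 (12.68 and 12.85). The part of these arrays' RNA quality in the Vegfa values was not tested.

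Pgf, a ligand of Flt1 and not of Kdr, had 7.80, 7.89 and 7.72 in hypoxia with SU5416, 8.06, 7.69, 7.43 and 7.57 in hypoxia alone, and 6.32, 6.82, 7.33 and 7.16 in normoxia in probe set 1368918_at. Every array of both hypoxic groups lay above every normoxia array. Hypoxia with SU5416 was 1.87-fold higher than normoxia (0.90, SE 0.23, 95% interval 0.38 to 1.42, adjusted p = 0.18 by limma), and hypoxia alone 1.72-fold higher (0.78, SE 0.22, 95% interval 0.30 to 1.27, limma adjusted p = 0.296). The hypoxic groups differed by 0.11 (SE 0.23, 95% interval −0.41 to 0.64, limma adjusted p = 0.941). The lowest normoxia values were on the arrays with the wide beta-actin gap, and leaving out both left differences from normoxia of 0.56 with SU5416 and 0.45 in hypoxia alone (adjusted p = 0.252 and 0.247 by limma). The second Pgf probe set, 1368919_at, was below the background level of 5.72 on all 4 normoxia arrays, on 2 of 4 arrays in hypoxia alone and on 2 of 3 with SU5416. Its difference between hypoxia alone and normoxia (limma adjusted p = 0.548) therefore has no reading. A single array in each hypoxic group carried the mean of this probe set: 7.74 on hypoxia array 1 and 7.14 on SU5416 array 2, against 5.03 to 5.87 on the others of those groups. Without hypoxia array 1 the mean of hypoxia alone was 5.63, below background, and no fold is given for this probe set.

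Vegfb, a ligand of Flt1 that the textbooks tie to heart and fat more than to vessel growth, had 8.55, 8.67 and 8.38 in hypoxia with SU5416, 8.47, 8.47, 8.23 and 8.72 in hypoxia alone, and 7.59, 8.23, 8.21 and 8.44 in normoxia. The groups overlapped, and normoxia array 1 was the lowest of the 11. Its differences were 0.41 (SE 0.20) for SU5416 and 0.35 (SE 0.18) for hypoxia alone against normoxia, limma adjusted p = 0.44 and 0.516. Without normoxia array 1 they were 0.235 and 0.175. Between the hypoxic groups the difference was 0.06 (SE 0.20, 95% interval −0.38 to 0.50).

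Vegfc, the ligand of Flt4, had 10.08, 10.40 and 10.29 in hypoxia with SU5416, 10.12, 9.81, 9.78 and 9.55 in hypoxia alone, and 9.604, 9.592, 9.996 and 9.977 in normoxia. The arrays with SU5416 lay above all normoxia arrays and, but for 1 array of each, above hypoxia alone. Hypoxia with SU5416 was 1.36-fold higher than hypoxia alone (0.44, SE 0.17, 95% interval 0.07 to 0.82, limma adjusted p = 0.598) and 1.38-fold higher than normoxia (0.46, SE 0.17, limma adjusted p = 0.31). The second value was 0.27 without normoxia arrays 1 and 2. Hypoxia alone and normoxia differed by 0.02 (SE 0.15, 95% interval −0.32 to 0.37).

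Flt4, the receptor of Vegfc, had 8.10, 7.85 and 7.79 in hypoxia with SU5416, 7.31, 6.94, 7.29 and 8.07 in hypoxia alone, and 7.38, 7.60, 7.73 and 8.03 in normoxia. The hypoxia group spread widest, with array 4 among the highest of all. Hypoxia with SU5416 differed from hypoxia alone by 0.51 (SE 0.25, 95% interval −0.05 to 1.06, limma adjusted p = 0.715) and from normoxia by 0.23 (SE 0.25), and hypoxia alone differed from normoxia by −0.28 (SE 0.23). These differences moved with single arrays: without hypoxia array 4 the last was −0.505, and without normoxia arrays 1 and 2 the difference of SU5416 from normoxia was 0.03. Vegfd, the other ligand of Flt4, stood at 8.07 ± 0.22 (SD, n = 3) in hypoxia with SU5416, 7.48 ± 0.27 (n = 4) in hypoxia alone and 7.91 ± 0.34 (n = 4) in normoxia, a difference of 0.59 from hypoxia alone (SE 0.21, limma adjusted p = 0.57).

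Of 7 lymphatic endothelial markers, 6 were higher in hypoxia with SU5416 than in hypoxia alone (median 0.32), among them the extracellular proteins Mmrn1 (9.21 ± 0.09, n = 3, against 8.25 ± 0.35, n = 4, limma adjusted p = 0.409) and Reln (8.93 ± 0.05 against 8.29 ± 0.17, adjusted p = 0.287). The lymphatic transcription factor Prox1 differed by 0.32 (SE 0.16, adjusted p = 0.702). Against normoxia, 4 of the 7 were higher and 3 lower with SU5416 (median 0.14). In hypoxia alone, 2 were higher and 5 lower than in normoxia (median −0.13). Ccl21 lay above normoxia without overlap with SU5416 (0.86, limma adjusted p = 0.0925) and in hypoxia alone (0.54, limma adjusted p = 0.295). The mean log2 signal of the 7 was 10.38 to 10.49 in hypoxia with SU5416, 10.02 to 10.12 in hypoxia alone and 10.26 to 10.33 in normoxia. Their log2 of the summed signal overlapped, at 13.93 to 14.01, 13.74 to 14.04 and 13.99 to 14.39 in the same order. Lyve1, the hyaluronan receptor of lymphatic endothelium and of some macrophages, had 11.42 ± 0.19 in hypoxia with SU5416 and 11.18 ± 0.68 in hypoxia alone against 12.63 ± 0.30 in normoxia. None of the 7 was below background, and their part in the Vegfc and Flt4 values was not tested.

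Flt1, the receptor of Pgf, Vegfb and Vegfa, was read by 3 probe sets. The brightest, 1377113_at, had 10.30, 10.67 and 10.51 in hypoxia with SU5416, 10.58, 10.52, 10.71 and 10.39 in hypoxia alone, and 10.51, 10.47, 10.08 and 10.16 in normoxia. Its groups overlapped, with differences of −0.06 (SE 0.15, 95% interval −0.38 to 0.27) between the hypoxic groups, 0.19 (SE 0.15) for SU5416 against normoxia and 0.24 (SE 0.14) for hypoxia alone against normoxia, limma adjusted p from 0.541 to 0.955. The second, 1369087_at, had 9.63, 10.05 and 9.43 in hypoxia with SU5416, 9.28, 8.76, 8.74 and 9.56 in hypoxia alone, and 9.12, 9.24, 10.26 and 9.82 in normoxia. It differed by 0.62 (SE 0.31) between the hypoxic groups and by −0.53 (SE 0.29) for hypoxia alone against normoxia, limma adjusted p = 0.725 and 0.533. The second value was −0.31 without normoxia array 3, and it ran to −0.69 with other single arrays left out.

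The third Flt1 probe set, 1370492_a_at, had 8.18, 8.66 and 8.24 in hypoxia with SU5416, 7.85, 7.28, 7.37 and 7.52 in hypoxia alone, and 7.96, 7.71, 8.16 and 8.08 in normoxia. Its arrays with SU5416 lay above all others. Hypoxia with SU5416 was 1.81-fold higher than hypoxia alone (0.86, SE 0.18, 95% interval 0.46 to 1.26, limma adjusted p = 0.314), the 73rd smallest p of that comparison and the member difference that SAM called. Over all alternatives it lay between 0.71 and 0.97. Against normoxia it was 0.38 higher (SE 0.18, limma adjusted p = 0.426). That value was 0.24 when normoxia arrays 1 and 2 were left out. Hypoxia alone stood 1.39-fold below normoxia (−0.48, SE 0.17, limma adjusted p = 0.368). The 3 probe sets thus gave −0.06, 0.62 and 0.86 between the hypoxic groups, and which stretch or form of the Flt1 transcript each reads was not determined here. On normoxia arrays 1 and 2 the brightest set was higher than on arrays 3 and 4, and the other sets were lower. Without arrays 1 and 2, hypoxia alone differed from normoxia by 0.43 in the brightest set and by −0.96 in the second.

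**Figure D4:**
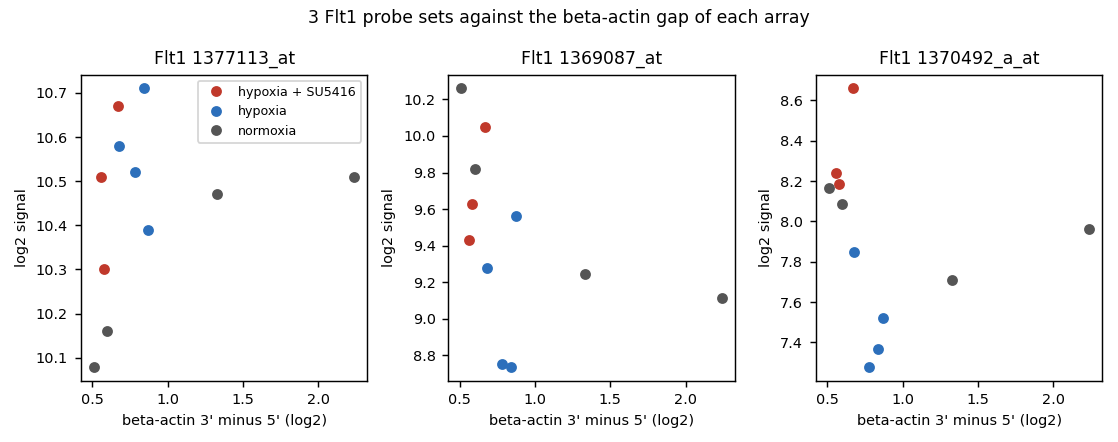
Log2 signal of each Flt1 probe set (vertical) against the gap between the 3′ and 5′ beta-actin probe sets of the same array (horizontal, log2); each point is an array, coloured by group (hypoxia with SU5416, hypoxia, normoxia). The normoxia arrays with gaps of 2.24 and 1.33 lie to the right, and the hypoxia arrays with SU5416 are above all others in the third panel.

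Macrophage markers are given beside Flt1 because monocytes carry this receptor. Of 12 markers of macrophages and monocytes, 11 were higher in hypoxia with SU5416 than in hypoxia alone (median 0.30) and 9 higher than in normoxia (median 0.52). The log2 of their summed signal was 14.33 to 14.66 in hypoxia with SU5416, 14.02 to 14.20 in hypoxia alone and 14.16 to 14.31 in normoxia, and 1, 2 and 2 of the 12 were below background in these groups. Ms4a7, a membrane protein of macrophages, was called in both comparisons with SU5416. It had 9.49, 8.58 and 10.28 in hypoxia with SU5416 and was below background on all 4 arrays of hypoxia alone (mean 4.56) and all 4 of normoxia (mean 4.92). It rose at least 13.3-fold with SU5416 against each of these groups, with the background level as the floor (limma adjusted p = 0.000923 and 0.00263). The call held in 19 of 19 other limma fits in each comparison, at an adjusted p of at most 0.0379 and 0.0401. Adgre1, another of the 12, went the other way and was lower with SU5416 than in normoxia without overlap. It had 7.56 ± 0.12 (n = 3) against 8.43 ± 0.33 (n = 4, limma adjusted p = 0.105). At an unadjusted p under 0.05, 4 of the 12 were higher and 1 lower with SU5416 against hypoxia alone. These were 33.3% and 8.33%, against 3.67% and 3.63% of all genes. Against normoxia, 5 were higher and 1 lower, 41.7% and 8.33% against 6.02% and 6.70% of all genes. The complement component C1qa was 2.43-fold higher in hypoxia with SU5416 than in hypoxia alone (11.20 ± 0.37, n = 3, against 9.91 ± 0.15, n = 4, limma adjusted p = 0.123). All 12 smooth muscle markers were also higher in hypoxia with SU5416 than in hypoxia alone (median 0.36). The part of these cells in the Flt1 values was not tested.

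The gap between Flt1 and Kdr on the same array was less negative in both hypoxic groups when the brightest Flt1 probe set was used. It was −1.57, −1.51 and −1.70 in hypoxia with SU5416, −1.80, −1.75, −1.56 and −2.02 in hypoxia alone, and −2.10, −2.17, −2.50 and −2.32 in normoxia. All hypoxic arrays lay above the normoxia arrays, and the hypoxic groups overlapped. The zero of this gap has no meaning, since it depends on the probes. The means exceeded that of normoxia by 0.68 with SU5416 and by 0.49 in hypoxia alone. With the other Flt1 probe sets the SU5416 difference was 0.58 and 0.87, whereas that of hypoxia alone was −0.28 and −0.23, so the direction for hypoxia alone depends on the probe set.

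The co-receptor Nrp1 was read by 2 bright probe sets. In 1370570_at it had 11.82, 11.91 and 11.99 in hypoxia with SU5416, 12.16, 12.02, 12.02 and 11.94 in hypoxia alone, and 12.26, 12.13, 12.09 and 12.09 in normoxia, so that the arrays with SU5416 lay below those of normoxia. That difference was −0.24 (SE 0.10, 95% interval −0.46 to −0.02, limma adjusted p = 0.368). In 1373577_at it had 12.19, 12.48 and 12.24 in hypoxia with SU5416, 12.56, 12.42, 12.53 and 12.48 in hypoxia alone, and 12.66, 12.58, 12.38 and 12.30 in normoxia, with overlap and a difference of −0.18 (SE 0.12) between SU5416 and normoxia. Hypoxia alone differed from normoxia by −0.11 (SE 0.09) and 0.02 (SE 0.11) in these probe sets.

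Nrp2, the co-receptor shared with the lymphatic ligands, had 9.97, 9.86 and 9.69 in hypoxia with SU5416, 9.62, 9.96, 10.06 and 9.76 in hypoxia alone, and 10.39, 9.98, 9.69 and 9.74 in normoxia. Its groups overlapped. The differences were −0.01 (SE 0.18, 95% interval −0.42 to 0.40) between the hypoxic groups, −0.11 (SE 0.18) for SU5416 and −0.10 (SE 0.17) for hypoxia alone against normoxia. The second probe set of Nrp2, 1369824_at, was near background, with 1 of 3 arrays with SU5416, 3 of 4 in hypoxia alone and 2 of 4 in normoxia below it, and no fold is given for it.

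The signalling genes below the receptors were described from a list of kinases, adaptors and effectors of VEGF receptor signalling, of which 41 were measured. In hypoxia with SU5416 against hypoxia alone, 18 were higher and 23 lower (median −0.03), with an unadjusted p under 0.05 for 2 higher and 2 lower, 4.88% each against 3.67% and 3.63% of all genes. Nfatc2, a transcription factor activated by calcium and calcineurin in endothelium and lymphocytes, was called. It rose 2.06-fold with SU5416, to 9.15 ± 0.04 (SD, n = 3) against 8.11 ± 0.15 (n = 4) in hypoxia alone, limma adjusted p = 0.0191, while a second, dimmer probe set stood 0.15 higher (adjusted p = 0.933). The call held in 12 of 20 other limma fits (adjusted p from 0.00303 to 0.238), and was lost when hypoxia array 1, 2 or 3 or any single array with SU5416 was left out and when the 2 groups were fitted alone (adjusted p = 0.0652). Nos3, the endothelial nitric oxide synthase, had 8.05, 8.12 and 8.26 in hypoxia with SU5416, 7.91, 7.90, 7.52 and 7.60 in hypoxia alone, and 7.45, 7.49, 7.42 and 7.59 in normoxia. Its arrays with SU5416 lay above all others, with differences of 0.41 from hypoxia alone and 0.65 from normoxia (SE 0.13 each, limma adjusted p = 0.501 and 0.10). Nfatc1 went the other way and was lower with SU5416 than in hypoxia alone without overlap. It had 7.87 ± 0.13 against 8.21 ± 0.19 (−0.35, SE 0.14, limma adjusted p = 0.624). Against normoxia, 6 of the 41 were higher and 2 lower at an unadjusted p under 0.05 with SU5416, 14.6% and 4.88% against 6.02% and 6.70% of all genes, and limma called 0. In hypoxia alone against normoxia, 4 were higher and 2 lower, 9.76% and 4.88% against 4.30% and 5.29% of all genes, and 0 were called. Among them the kinase Prkca differed by −0.41 (SE 0.11, adjusted p = 0.295) and the phospholipase Plcg1, which Kdr activates, by 0.31 (SE 0.11, adjusted p = 0.377).

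Of 37 measured genes that VEGF is known to induce in endothelium, 22 were higher in hypoxia with SU5416 than in hypoxia alone (median 0.05) and 22 higher than in normoxia (median 0.13). They did not move one way: against normoxia, 7 were higher and 5 lower at an unadjusted p under 0.05, 18.9% and 13.5% against 6.02% and 6.70% of all genes. Apln, a peptide of sprouting and capillary endothelium, was called against normoxia. It had 9.82, 10.35 and 10.41 in hypoxia with SU5416, 10.94, 10.82, 10.98 and 11.21 in hypoxia alone, and 11.51, 11.47, 11.24 and 11.30 in normoxia. The 3 groups did not overlap, the same order as for Kdr. It fell 2.27-fold with SU5416 against normoxia (−1.19, SE 0.16, limma adjusted p = 0.0488), and the second Apln probe set gave −0.96 (adjusted p = 0.105). Its call held in 4 of 20 other limma fits (adjusted p from 0.00739 to 0.234) and was lost on leaving out any single array but hypoxia array 4, with the 2 groups fitted alone, with array weights and after median centring. The call was also lost without normoxia arrays 1 and 2 (limma adjusted p = 0.104), with the beta-actin gap as a covariate and with the replicate number as a block. Against hypoxia alone the difference of Apln was −0.79 (SE 0.16, adjusted p = 0.288). Plaur, the urokinase receptor, differed from normoxia by 1.76 (SE 0.27, adjusted p = 0.0605), with 8.80 ± 0.18 in hypoxia with SU5416 against 7.04 ± 0.50 in normoxia. Its other probe set lay below background. F3, tissue factor, differed by 0.81 (SE 0.20, adjusted p = 0.169). In hypoxia alone against normoxia, 18 of the 37 were higher and 0 were called.

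Among 35 measured binding partners, semaphorins and trafficking proteins of VEGF receptors, limma called 0 in each comparison. At an unadjusted p under 0.05, 1 was higher and 1 lower in hypoxia with SU5416 against hypoxia alone, 2.86% each against 3.67% and 3.63% of all genes. In hypoxia with SU5416 against normoxia, 5 were higher and 1 lower, 14.3% and 2.86% against 6.02% and 6.70% of all genes. In hypoxia alone against normoxia, 4 were higher and 1 lower, 11.4% and 2.86% against 4.30% and 5.29%. Sema3g, a semaphorin made by endothelium that binds neuropilins, had means of 11.28 ± 0.15 (SD, n = 3) in hypoxia with SU5416, 11.66 ± 0.23 (n = 4) in hypoxia alone and 12.18 ± 0.21 (n = 4) in normoxia. The differences from normoxia were −0.90 (SE 0.16, limma adjusted p = 0.0822) and −0.53 (SE 0.15, adjusted p = 0.306). Rab4a, a small GTPase of endosomal recycling, was 1.96-fold higher in hypoxia alone than in normoxia (10.01 ± 0.26 against 9.04 ± 0.20, adjusted p = 0.174) and 1.64-fold higher with SU5416 (9.75 ± 0.11, adjusted p = 0.136).

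Vegfa is a textbook target of the hypoxia-inducible factors, and 37 measured genes of that pathway were set beside it. In hypoxia alone against normoxia, 22 were higher (median 0.11), 10 of them at an unadjusted p under 0.05 (27.0% against 4.30% of all genes) and 1 lower (2.7% against 5.29%), and limma called 0. In hypoxia with SU5416 against normoxia, 26 were higher (median 0.15), 7 at that threshold and 0 lower, 18.9% and 0% against 6.02% and 6.70% of all genes, with 0 called. The RNA of Hif1a, a subunit of these factors, had 11.96, 12.06, 12.19 and 11.88 in hypoxia alone and 11.64, 11.61, 11.52 and 11.51 in normoxia, a difference of 0.45 (SE 0.11, limma adjusted p = 0.259). Pfkl differed by 1.07 (SE 0.23, limma adjusted p = 0.249) and Pgk1 by 0.13 (SE 0.11, limma adjusted p = 0.693). In the same comparison 15 of the 37 were lower, among them Egln3 (−0.17, SE 0.13, limma adjusted p = 0.674). Ldha, the lactate dehydrogenase of glycolysis, had means of 12.39 ± 0.06 (n = 3) with SU5416 and 12.18 ± 0.07 (n = 4) in hypoxia alone, against 11.82 ± 0.16 (n = 4) in normoxia.

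The genes whose profile over the 11 arrays was most like a member's were taken as those with the smallest root mean square difference (log2), after each profile was centred on its own mean, among 12678 genes above background. For Kdr these were Tspan12 (0.0583), Bmp6 (0.088), Rflnb (0.0897), Kat2b (0.0921) and Tbc1d4 (0.0986), where the spread of Kdr about its own mean was 0.217. Tspan12, a tetraspanin, had means of 11.42, 11.64 and 11.82 in hypoxia with SU5416, hypoxia alone and normoxia, and Bmp6, a bone morphogenetic protein, 11.24, 11.54 and 11.85. For the brightest Flt1 probe set they were Sema6d (0.072), Fat1 (0.0744), Aars2 (0.0878), Wdfy3 (0.089) and Pbrm1 (0.0892), against its own spread of 0.189. For the brighter Vegfa probe set they were Khsrp (0.0988), Gata2 (0.103), Arhgef1 (0.104), Son (0.117) and Tut4 (0.121), against 0.282. The points share the same 11 arrays, so these likenesses include any difference between arrays that touches many genes.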

How the data were processed

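Total RNA of rat lung was hybridised to 1 Affymetrix array per sample, and the deposited table holds log2 signals of 31099 probe sets for 11 arrays. RMA is named in the submitters' processing notes without a version. The linear values have a trimmed mean of 500.0 on every array and their distributions differ, so how the deposited log2 values were summarised and scaled stays unknown. Of the probe sets, 57 array controls were left out, and 31042 were tested. The background level of 5.72 is the 95th percentile of 27 bacterial control probe sets. Symbols came from the array's annotation table: 20826 probe sets had 1 symbol, 436 several and 9780 none, and no member symbol was among the 436. Where 1 probe set stands for a gene, it is the brightest over all arrays, and the members' other probe sets are given too.

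limma 3.58.1 in R 4.3.3 fitted 1 mean per group on all 11 arrays (8 residual degrees of freedom), two-sided, with Benjamini-Hochberg adjustment over all probe sets of a comparison and calls at 0.05. The fit was tested on simulated data. SAM was computed from its definition at delta 0.639 and fold 1.4, as in the study's text. From each gene list, called genes were named, or otherwise up to 3 of smallest p. Beside a called gene, others of the 3 smallest p were also named, and Tek and Ager were chosen after their values were seen. Likeness used 5 genes per member. The members and the lists were chosen with earlier results of these data known. The number of arrays limits the precision. Python 3.11.15 with pandas 2.3.3, numpy 2.4.6 and matplotlib 3.10.9 served for tables and plots.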

Additional observations from a re-analysis of the deposited data

How the results depend on the processing

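SAM, which has no adjusted p here, called 1 member in hypoxia with SU5416 against hypoxia alone (Flt1 1370492_a_at). At limma's adjusted threshold, the call for no member changed in hypoxia with SU5416 against normoxia. There 1 member, Kdr, was called with the dimmer probe sets left out and 1, again Kdr, with limma's trend and robust options. The cause was not tested, although leaving out dimmer probe sets tests fewer of them. Over all probe sets, the 8 calls of hypoxia with SU5416 against hypoxia alone became 14 after quantile normalization, 16 with trend and robust, 24 with array weights, 309 by SAM, 18 with the beta-actin gap as a covariate and 16 without normoxia arrays 1 and 2. With single arrays left out they numbered 7 to 15 (14 without normoxia array 1 and 15 without SU5416 array 3). The 19 calls against normoxia became 43, 145, 32 and 366 under the first 4 of these, 214 without the dimmer probe sets and 8 with only the 2 groups. With single arrays left out there were 8 to 38 (38 without hypoxia array 4, and 8 to 12 without normoxia array 1 or 4, hypoxia array 1 or 3, or SU5416 array 1). The 2 calls of hypoxia alone against normoxia became 1 after quantile normalization, median centring, with only the 2 groups, and with trend and robust. They became 0 without dimmer probe sets (where limma had 2 over all), 584 by SAM, 99 without normoxia arrays 1 and 2, and 4 with the covariate. With single arrays left out they numbered 1 to 14, the 14 without hypoxia array 4. Same-numbered arrays deviated together little (correlations from −0.125 to 0.128). The labels do not say what a replicate number shares, so whether the numbers pair the samples stays unknown. With the replicate number as a block, 6 probe sets passed for SU5416 against normoxia, 1 for hypoxia alone against normoxia, and no member, and the calls of Nfatc2 and Apln were lost (adjusted p = 0.238 and 0.234).

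Some small member differences changed sign. Between the hypoxic groups, Vegfb was −0.015 with the covariate and −0.022 to 0.141 with single arrays left out. Nrp2 1382995_at was 0.010 after quantile normalization, 0.066 with the covariate and −0.089 to 0.061 with arrays left out. Leaving out arrays also gave −1.068 to 0.142 for Pgf 1368919_at and −0.145 to 0.040 for Flt1 1377113_at. For SU5416 against normoxia, Vegfa 1370081_a_at was 0.042 after centring and −0.063 to 0.030 with arrays left out. Flt1 1369087_at was −0.070 with weights, −0.337 without normoxia arrays 1 and 2, −0.224 with the covariate and −0.081 to 0.310 with arrays left out. Nrp2 1382995_at was 0.126 and 0.122 under the last 2 settings and −0.198 to 0.037 with arrays left out, and Pgf 1368919_at −0.050 to 1.005. For hypoxia alone against normoxia, Vegfa 1373807_at was 0.057 without normoxia arrays 1 and 2. Vegfc was −0.023 with weights, −0.173 without those arrays, −0.079 with the covariate and −0.081 to 0.110 with arrays left out. Kdr 1397868_at was 0.062 after quantile normalization, 0.025 after centring and −0.209 to 0.070 with arrays left out, and Nrp1 1373577_at −0.043 to 0.077. In the order weights, without normoxia arrays 1 and 2, covariate and arrays left out, Nrp2 1382995_at was 0.003, 0.137, 0.055 and −0.187 to 0.048, and Nrp2 1369824_at −0.028, −0.161, −0.191 and −0.268 to 0.329. The cause of these sign changes was not tested, while 999 values of single genes kept direction and side of the threshold and 24 lost a call in the same direction (Nfatc2 and Apln). The values of Pgf 1368919_at and Nrp2 1369824_at stand at or near background, so their size and sign have no reading.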
